A study of Mus musculus with 7 samples.

Results

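Trichostatin A (TSA), an inhibitor of histone deacetylases, was given to mouse embryonic fibroblasts that lacked the tumour suppressor p53 (p53-/-, called p53-null). The response was read on 3 of the 7 arrays of the series: 1 untreated array, 1 after 24 h and 1 after 48 h of TSA. It was taken over every probe set outside the array's own controls, and a response counted when it had the same direction at both times. Of these 22626 probe sets, 8388 were above the untreated signal at both times and 7567 below it. At 2-fold or more, on the log scale given below, 253 were higher and 161 lower. The counts below come from a filtered set with 1 probe set per gene, most of them with that 2-fold limit, unless another setting is named. The other 4 arrays came from fibroblasts lacking both p53 and the DNA methyltransferase Dnmt1 (p53-/- Dnmt1-/-, called p53-Dnmt1-null), untreated, after 24 h and 48 h of TSA, and 2 weeks after TSA was removed. All 7 arrays therefore came from cells without p53, and the untreated p53-null array is the control of every comparison below unless the other genotype is named. The labels and design text name neither the dose of TSA nor the passage of the cells, nor how many cultures or embryos stand behind an array. The series asks what part DNA methylation plays in keeping genes silent, and in p53-null cells Dnmt1 is present.

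Histone deacetylases take acetyl groups off lysines in histone tails, which tightens chromatin, and they act at genes through corepressor complexes such as those of Sin3, NuRD and the neuronal repressor REST. Inhibitors such as TSA raise histone acetylation within hours and are known to arrest many cultured cells, to lower genes of the cell division cycle and to raise some genes that fibroblasts normally keep silent, many of them neuronal or secretory. They also act on proteins other than histones, so a gene that follows TSA need not be a direct target of a deacetylase at its promoter.

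The values are signal intensities from Affymetrix arrays, condensed by the authors with MAS5. They were analysed as log2(signal + 11.4), and every difference or fold below is on that scale, which understates the change of dim genes. A gene or unnamed probe set, called a feature, was kept where its signal exceeded 45.6, the median of all signals, on at least 1 of the 7 arrays. That left 9390 features, 8298 of them named genes. With 1 array per group no pair of arrays has a replicate check, and both TSA arrays are set against the same untreated array, so agreement between 24 h and 48 h is part of the rule and no support for it.

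The array's own controls gave these measures of RNA quality on the 3 p53-null arrays. The ratio of 3' to 5' signal was 0.853, 0.863 and 0.906 for Gapdh and 1.06, 1.11 and 1.15 for Actb at 0, 24 and 48 h. It was less even for Tfrc, at 2.76, 2.38 and 4.41, and for Pcx, at 3.43, 3.33 and 4.08, highest at 48 h for both. The 3' control for 18S ribosomal RNA read 194, 337.5 and 228.7 and the 5' control 88.2, 233 and 151.4, so the 24 h array was the highest. The part of these in the results was not tested. None of the 64 control probe sets differed by 2-fold in the same direction at both times. The gene for p53 was not analysed here, so the genotype was not checked by it. Dnmt1, which these cells keep, had signals of 695.6, 384.4 and 308.2. All 15 measured fibroblast markers exceeded the median signal on at least 1 p53-null array, and their signals summed to 31297.9, 35109.4 and 39813.9 at 0, 24 and 48 h. Most markers of other cells were dim. Of 11 epithelial markers 2 exceeded it on any p53-null array, of 10 macrophage markers 3, of 7 endothelial markers 1, of 5 adipocyte markers 3, of 8 neuron markers 1, and of 3 erythroid and 7 skeletal muscle markers 0. Their summed signals ran from 178 to 465.8 for epithelium, 188.8 to 233.9 for macrophages, 84.9 to 109.6 for endothelium, 285.8 to 324.1 for adipocytes, 128.3 to 191.3 for neurons, 18.8 to 36.4 for erythroid cells and 71.9 to 100.2 for muscle. The brightest were the keratin Krt19, at 209.3, 298.5 and 48.8 and so lowest at 48 h, and the adipocyte genes Cebpa, at 160.6, 108.2 and 114, and Fabp4, at 54.8, 121 and 81.6. The defining markers Epcam, Ptprc, Pecam1 and Snap25 were at most 2.3, 4.0, 5.0 and 2.8 on these arrays.

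A feature met the size rule when it was 2-fold or more above, or 2-fold or more below, the untreated array at 24 h and again at 48 h. By it 145 features were higher with TSA, or 1.54% of all 9390, and 94 were lower, or 1.00%. Of these, 128 and 85 were named genes. With the offset raised to the median signal, which shrinks the differences of dim genes, 45 and 41 features passed. At any size, 3623 features (38.6%) were above the untreated signal at both times and 3241 (34.5%) below it, and the median difference of all features was 0.01 at 24 h and 0.03 at 48 h on the log2 scale. The member closest to the limit was at 1.01 among the higher and exactly 2-fold down among the lower, and the features just outside were at 0.99 and -0.999. A single time gave larger counts, with 317 features higher and 174 lower at 24 h and 446 and 298 at 48 h. Of the 317, 27 were below the untreated signal at 48 h. Limma, fitted over all 7 arrays with both TSA times of a genotype pooled, called 0 features (0%) at an adjusted p of 0.05. The lowest adjusted p was 0.241, and 799 features (8.51%) had an unadjusted p under 0.05. No gene is therefore said to have risen or fallen below. The words higher and lower describe these arrays.

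The rule subtracts the untreated signal, so it favours genes that read low on that array among the higher features and bright ones among the lower, and the starting signals are given as a description. The higher features had a median untreated signal of 39.1 against 146 for all features, and 81 of the 145 were at or below the median of all signals. The lower features had a median of 330.5, and 5 of the 94 were at or below that median. The filter lets a dim gene in only through an array that reads it brighter, and 20 of the 145 were kept through a p53-null TSA array alone, as were 209 features in all. The higher features had medians of 1.39 at 24 h and 1.42 at 48 h, and 72 of them had the larger difference at each time. The lower features had medians of -1.23 and -1.55, and 76 of the 94 were further down at 48 h. On bulk RNA, fewer cells expressing a gene and less RNA per cell cannot be told apart.

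**Figure D1:**
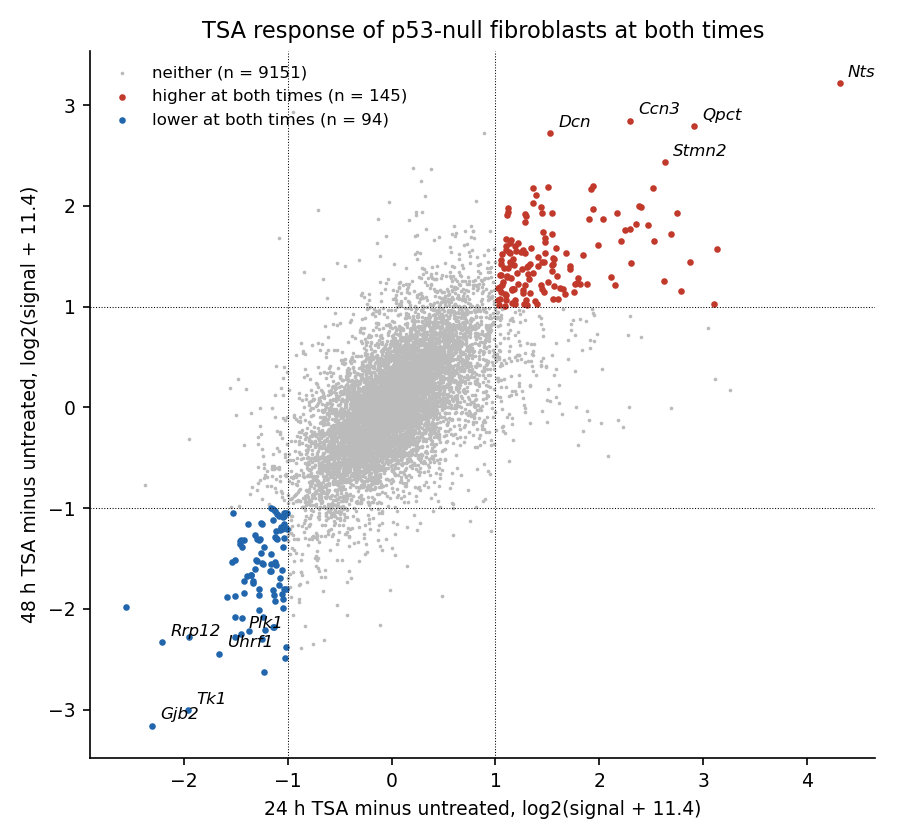
Difference from the untreated p53-null array after 24 h (x axis) and 48 h (y axis) of TSA for 9390 features, in log2(signal + 11.4). Red points are the 145 features at least 2-fold higher at both times, blue points the 94 at least 2-fold lower, and dotted lines mark 2-fold; Nts lies farthest to the upper right and Gjb2 to the lower left.

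The largest response was that of a secreted peptide, and genes that process such peptides were higher with it. Nts encodes the precursor of neurotensin, a neuropeptide of brain and gut. The untreated array read 24.9, the 24 h array 708.7 and the 48 h array 327.1. That is 19.8-fold and 9.33-fold, the largest response of any named gene by the rule used here, and the pooled limma estimate was 3.77 ± 0.48 (SE, limma adjusted p = 0.241). Qpct, the glutaminyl cyclase that closes the N-terminus of peptides such as neurotensin, went with it, at 11.6, 160.8 and 147.8. Pcsk1n, the precursor of an inhibitor of a prohormone convertase, read 6.2, 60.9 and 52.9. All 3 were dim untreated and above the median signal on both TSA arrays. They were 3 of 9 measured members of the list of neuropeptide and secretory granule genes, where 1.54% of all features were higher. Qpct was measured only through p53-null TSA arrays, and Nts and Pcsk1n only through TSA arrays of both genotypes. All 3 therefore had to be high with TSA to be counted, so their share of the 9 is no support. Of these 9, 6 were above untreated at both times and 0 below, against 38.6% and 34.5% of all features, and 0 were lower by the size rule. With the offset at the median signal (below, the larger offset) Pcsk1n missed the rule. Cpe, the carboxypeptidase that trims prohormones, was already bright at 1048.9, read 1287.8 and 1737.2, and did not pass the rule.

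The neuronal genes among the higher ones span the cytoskeleton, the synapse and membrane proteins. Stmn2 (stathmin-2), a microtubule regulator of growing axons, read 192.7, 1251.1 and 1092. Uchl1, a ubiquitin hydrolase abundant in neurons, read 114.8, 855.1 and 268.9, so most of its difference was at 24 h. Syn1, the synaptic vesicle protein synapsin I, read 37.5, 111.1 and 106.9. These 3 were the members that passed the size rule among 29 measured genes of the neuronal cytoskeleton and synapse, of which 19 were above untreated at both times and 3 below. The shares of all features are 1.54%, 38.6% and 34.5%. With the larger offset Syn1 and Uchl1 missed the rule, leaving 1 of 29. The median of the 29 was 0.71 at 24 h and 0.16 at 48 h. L1cam, a neural adhesion molecule, missed the rule at 24 h with signals of 168.2, 297.2 and 593.3. Syn3, another synapsin, which was in no list, went the other way at 42, 12.9 and 15.2.

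Among the 30 named genes with the largest higher responses were others known from neurons, in no list and picked with their values in view. Aplp1, of the amyloid precursor family, read 98.2, 509.3 and 361.2. Serpini1 (neuroserpin), a protease inhibitor, read 3.3, 60.8 and 38.9. Cadm3, a synaptic adhesion molecule, read 7.6, 56.8 and 42.7, and Cnih2, an auxiliary subunit of AMPA receptors, 5.1, 51.7 and 53. All of these but Aplp1 started under the median of all signals. Another probe set of Cadm3 read 14.6, 47.1 and 6.4, and so was below untreated at 48 h. Rtn2, a reticulon, and Tmem35a, a chaperone of nicotinic receptors, were at 11.4, 114.8 and 68.5 and at 1.7, 76.2 and 38.6. Of the 8 neuron markers, Tubb3 read 46.2, 82.8 and 41.3 and Map2 23.9, 36 and 38.7, and the other 6 read at most 25.5 on any of the 3 arrays. Serpini1, Cadm3, Cnih2 and Tmem35a missed the size rule with the larger offset. Serpini1 and Tmem35a were measured only through a p53-null TSA array, and Cadm3 and Rtn2 only through TSA arrays of both genotypes. Those genes had to be high with TSA to be counted, so they are no support for a neuronal group.

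The promoters of Nts and Syn1 are shown because they differ in base composition and in the motifs matched. Sequences are from the RefSeq annotation of GRCm38.p6, from 250 bases before to 50 bases after the start site, 5' to 3' on the gene's strand. Capitals mark the AP-1 site TGAGTCA, bound by Fos and Jun proteins, which lies 207 bases before the start in Nts (chr10:102490369-102490668, minus strand). In Syn1 (chrX:20920869-20921168, minus strand) capitals mark TTCAGCACC, the first part of the RE1 element read by REST, 232 bases before the start.
Nts: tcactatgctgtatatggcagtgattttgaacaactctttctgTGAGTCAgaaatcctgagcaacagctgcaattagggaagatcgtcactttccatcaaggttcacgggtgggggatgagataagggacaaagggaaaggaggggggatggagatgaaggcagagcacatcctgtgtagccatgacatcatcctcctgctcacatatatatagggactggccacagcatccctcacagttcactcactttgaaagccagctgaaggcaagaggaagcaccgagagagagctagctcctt
Syn1: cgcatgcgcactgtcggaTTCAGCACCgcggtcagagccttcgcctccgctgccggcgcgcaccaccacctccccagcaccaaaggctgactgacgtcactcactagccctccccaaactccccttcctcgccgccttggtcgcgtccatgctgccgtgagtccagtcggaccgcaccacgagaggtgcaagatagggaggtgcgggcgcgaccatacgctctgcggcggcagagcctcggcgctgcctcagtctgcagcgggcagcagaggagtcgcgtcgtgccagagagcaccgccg
The Nts window also holds the string TTTGAA, near its 5' end and again near the start site. It is left in lower case and is searched for below as the CHR element. The Nts promoter is poor in CpG, with an observed to expected ratio of 0.17 and 49% GC, and the Syn1 promoter is rich in it, at 0.96 and 68.3% GC. Both strands were searched. An AP-1 match was found in 4.62% of the 130 promoters of higher genes and in 4.02% of the 8763 promoters of all measured genes. The RE1 part was found in 1 promoter of a higher gene, that of Syn1, or 0.769%, against 0.354%. Neither share stands far from that of all measured genes.

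Matrix and mesenchymal genes of the fibroblast itself were also higher. Ccn3, a matricellular protein of the CCN family, read 247.4, 1255.5 and 1850.1. Dcn (decorin), a small proteoglycan that binds collagen, read 73.8, 234.2 and 551.8, and Lum (lumican), of the same family, 100.5, 257.5 and 318.2. Both proteoglycans were brighter at 48 h than at 24 h. Vcan (versican), a large proteoglycan, read 178.9, 483.1 and 383.9, and Efemp1, a fibulin, 82.2, 218.8 and 235.3. These were 5 of 41 measured matrix glycoproteins and proteoglycans, of which 25 were above untreated at both times and 5 below, against 1.54%, 38.6% and 34.5% of all features. Of the 41, 2 were measured only through p53-null TSA arrays, neither of them past the rule, and with the larger offset 4 of the 41 passed. Of 29 collagens 0 passed the size rule in either direction and 15 were above at both times, among them Col11a1 at 331.1, 664.7 and 1004.4. Prg4, the lubricin of joint fluid, and Gpc3, a glypican, were in no list and read 43.4, 273.5 and 208 and 17.2, 69.7 and 119.2. Gpc3 was measured only through p53-null TSA arrays and missed the rule with the larger offset.

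Some transcription factors of mesenchyme were higher. Prrx1, a homeobox factor of limb and facial mesenchyme, read 568.2, 1186.1 and 1318.7. Snai2, a zinc finger repressor of epithelial genes, read 103.5, 349.1 and 248.1. The other members past the rule were Meis1 and Mitf, at 2.9, 20 and 30.3 and at 29.8, 73.6 and 75.7, both dim. They were 4 of 22 measured mesenchymal factors, in a list written after values were seen, with 15 above untreated at both times and 3 below, where 1.54%, 38.6% and 34.5% of all features were. Mitf was measured only through p53-null TSA arrays. With the larger offset 1 of the 22 passed, Prrx1. Hoxc8, of 17 measured Hox and partner genes, read 99.5, 289.1 and 245.3. Of the 15 fibroblast markers 3 passed the rule (Dcn, Lum and Prrx1), 12 were above untreated at both times and 0 below, with medians of 0.38 and 0.64. Those 3 genes are also counted in the matrix list (Dcn and Lum) and among the mesenchymal factors (Prrx1), so these counts overlap.

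Growth, adhesion and signalling genes added single members to the higher group. Igfbp2, which binds insulin-like growth factors, was the brightest of the higher genes after TSA, at 664.7, 1962.3 and 2215.5. Its limma estimate was 1.63 ± 0.25 (SE, limma adjusted p = 0.241). It was the 1 member of 44 growth factors and receptors that passed the rule. Dkk2, a secreted Wnt antagonist, read 263, 691 and 1108. It was 1 of 40 TGF-beta and Wnt genes, of which 26 were above untreated at both times and 1 below. The shares of all features are 1.54%, 38.6% and 34.5%. A single member of 44 or of 40 is near the first of these shares, and is no result about the list. Notch3, a receptor, read 40.5, 144.1 and 144. The adhesion molecules Icam1 and Alcam read 4.2, 58.6 and 47.9 and 56.7, 212.2 and 164.5, and Icam1 missed the rule with the larger offset. Ppbp, a platelet chemokine, read 81.8, 804.6 and 265.7, and Cxcl14 103, 552.3 and 297.3. Both chemokines were highest at 24 h. Malat1, a nuclear noncoding RNA, read 135.8, 545.6 and 650.1. Its other 3 probe sets were also above untreated at both times, by 0.71 to 1.21 at 24 h.

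Some detoxifying enzymes were higher, and most lysosomal genes were a little above untreated without passing the rule. Gstk1, a glutathione S-transferase of mitochondria and peroxisomes, read 24.5, 178.2 and 131. Gsta4 read 48.6, 503.1 and 110.9, so its difference at 48 h was close to the limit. Gstt1 and Gstt3 read 90.7, 303.3 and 220.7 and 63.2, 144.8 and 203.4. These 4 of 15 measured transferases passed the rule, with 11 above at both times and 3 below, in a list written after values were seen, against 1.54%, 38.6% and 34.5% of all features. With the larger offset only Gstk1 of the 15 passed, and Gsta4 also missed the rule after quantile normalization. Of 33 lysosomal genes 0 passed the size rule, but 29 were above untreated at both times and 2 below, with medians of 0.37 and 0.60, and 38.6% of all features were above. Lamp2, a lysosomal membrane protein, read 604.4, 1192.3 and 1318.4 and the protease Ctsl 1447.4, 2352.5 and 2617.4. Clu (clusterin), an extracellular chaperone, read 125, 357.4 and 529.1, and its other 3 probe sets were past the size rule too. It and Uchl1 were the 2 of 27 measured genes on the list of those raised by this class of drug that passed, and Uchl1 did not with the larger offset.

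**Figure D2:**
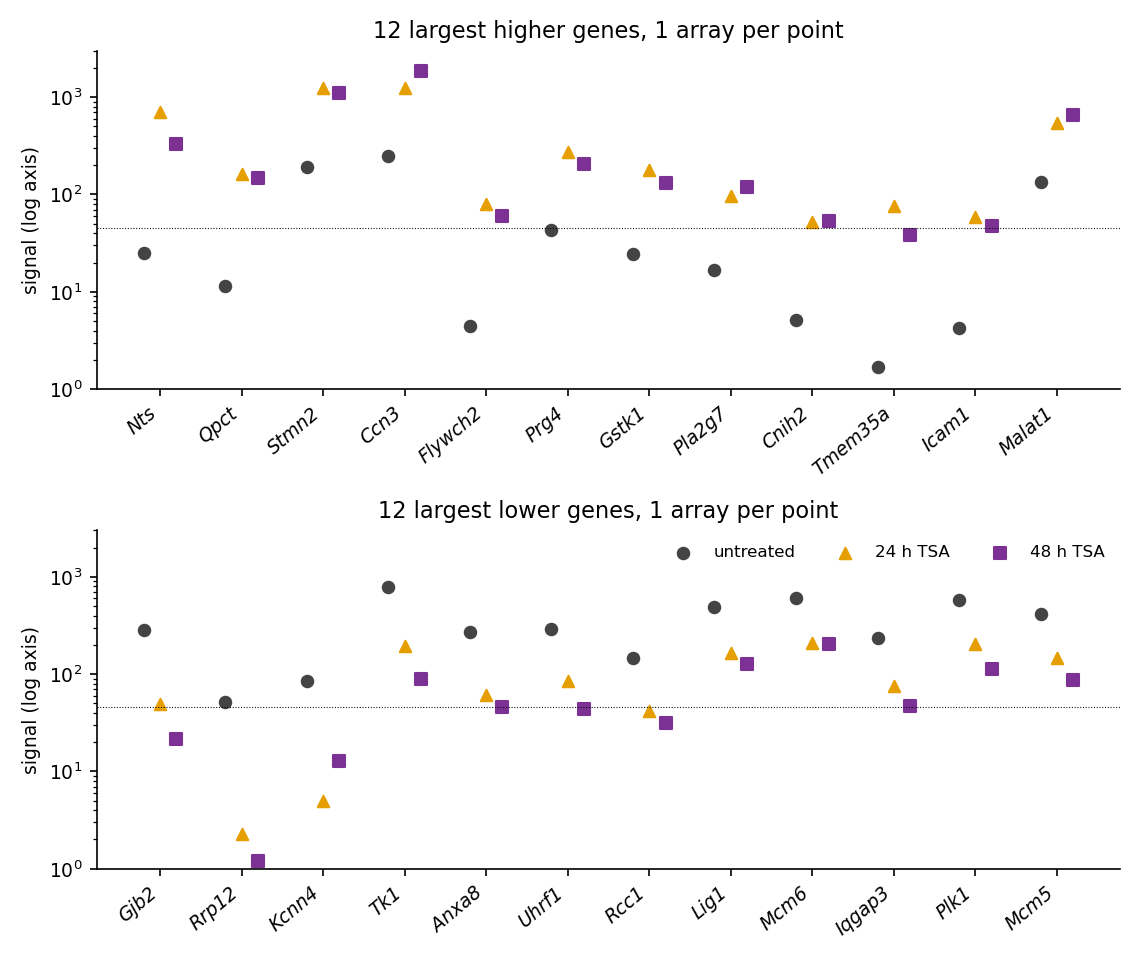
Signal on the 3 p53-null arrays, on a log axis, for the 12 named genes with the largest response at both times in each direction, 1 point per array. The dotted line is the median of all signals, 45.6; 9 of the 12 higher genes start below it, all but Stmn2, Ccn3 and Malat1, and all 12 lower genes start above it.

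Genes of DNA replication were lower together. Tk1, the thymidine kinase of S phase, read 788.6, 194.3 and 88.5. Mcm6 and Mcm5, subunits of the replicative helicase, read 607.9, 206.5 and 205.5 and 411, 144.8 and 88. Lig1, the ligase that joins Okazaki fragments, read 495.1, 166.7 and 127.2, and Pole, the leading strand polymerase, 159.3, 56.2 and 40.4. Each of these was lower at both times, with Mcm6 level between them. Of 40 measured replication genes 13 passed the size rule as lower and 0 as higher, where 1.00% of all features were lower. The larger offset left 8 of the 40. Of the 40, 37 were below untreated at both times and 1 above, against 34.5% and 38.6% of all features, and the medians were -0.81 at 24 h and -1.07 at 48 h. Pcna, the polymerase clamp, was below the limit of the rule at 1770.5, 1093.4 and 1024.7. The limma estimate was -2.48 ± 0.48 for Tk1 (SE, limma adjusted p = 0.379) and -1.76 ± 0.51 for Mcm5 (limma adjusted p = 0.443).

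Mitotic genes were lower too, most of all at 48 h. Plk1, the polo kinase of mitotic entry, read 581.6, 205.4 and 113.4. Cdc20, the activator of the anaphase-promoting complex, read 994.1, 477 and 258.6. Birc5 (survivin), of the chromosomal passenger complex, read 621.1, 230.2 and 186.7, and Ccna2, cyclin A2, 630.9, 255 and 147.7. All of these were lower at 48 h than at 24 h. Of 44 measured mitosis genes 10 were lower by the size rule and 0 higher, 39 were below untreated at both times and 2 above, against 1.00%, 34.5% and 38.6% of all features. The larger offset left 4 of the 44. The median went from -0.61 at 24 h to -1.23 at 48 h. The medians of replication genes, -0.81 and -1.07, lay closer together, though the difference between the lists was not tested. Of 25 genes of G1 control 1 passed, the repressor E2f8 at 73.6, 29.9 and 10, and with the larger offset 0 did. E2f1, an activator, read 367.8, 241.5 and 152.7, and Cdkn2a, a cyclin-dependent kinase inhibitor locus, was above untreated at 372, 888.8 and 679.7.

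Genes that make ribosomes and the building blocks of nucleotides were lower as well. Fbl (fibrillarin), the methyltransferase of ribosomal RNA, read 1064.1, 422.3 and 342.4. Nop56, of the same snoRNP, read 449.2, 185.6 and 63.1, and Nolc1, a nucleolar chaperone, 249.9, 83.8 and 91. Rrp12, which serves in the export of the small subunit, read 51.8, 2.3 and 1.2, and was near the median signal before TSA. Of 79 ribosome biogenesis genes, in a list written after values were seen, 8 were lower by the size rule and 0 higher, 68 were below untreated at both times and 5 above, with medians of -0.50 and -0.57. The shares of all features are 1.00% lower, 34.5% below and 38.6% above, and with the larger offset 6 of the 79 passed. Most of the list was thus a little below untreated, and few members were far below. Shmt2, the mitochondrial enzyme that feeds serine into folate, read 1217.3, 441.1 and 457.8. Srm, spermidine synthase, read 1720.1, 618.2 and 677.8. Cad, which starts pyrimidine synthesis, read 309.3, 137.4 and 118.9, and Dhodh, a later step of that pathway, 77.3, 30.5 and 30.6. Of 33 measured genes of nucleotide, serine and folate synthesis, also listed after values were seen, 10 were lower and 0 higher, 27 were below at both times and 5 above, against the same shares, with medians of -0.53 and -1.01. Under the larger offset 5 of the 33 passed. These 4 lists held 39 of the 85 named lower genes, or 45.9%, and 2.31% of all measured genes. This count includes lists made with the lower genes in view.

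The promoters of Cdc20, Mcm5 and Grwd1 are examples from the mitosis, replication and ribosome lists that hold a motif searched for here. Other members of each list have no match, and the shares with a match are given below. Grwd1, a ribosome assembly factor, read 340.2, 157.3 and 142.8. Capitals mark, in Cdc20 (chr4:118437294-118437593, minus strand), the CCAAT box read by NF-Y, found 53 and 8 bases before the start, and the CHR element TTTGAA of late cell cycle genes 18 bases before it. In Mcm5 (chr8:75109259-75109558, plus strand) they mark E2F sites, TTTGGCGC or TTTCGCGC on either strand. Matches on opposite strands begin 153 and 149 bases before the start and overlap. In Grwd1 (chr7:45830740-45831039, minus strand) they mark the E-box CACGTG read by Myc and related factors, 34 bases after the start. The Mcm5 window holds CCAAT boxes too, left in lower case.
Cdc20: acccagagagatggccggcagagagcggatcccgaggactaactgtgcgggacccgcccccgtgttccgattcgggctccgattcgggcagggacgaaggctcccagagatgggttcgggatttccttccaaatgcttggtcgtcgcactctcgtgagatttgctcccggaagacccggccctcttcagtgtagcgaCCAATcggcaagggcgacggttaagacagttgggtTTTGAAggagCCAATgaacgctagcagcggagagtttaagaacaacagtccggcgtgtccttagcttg
Mcm5: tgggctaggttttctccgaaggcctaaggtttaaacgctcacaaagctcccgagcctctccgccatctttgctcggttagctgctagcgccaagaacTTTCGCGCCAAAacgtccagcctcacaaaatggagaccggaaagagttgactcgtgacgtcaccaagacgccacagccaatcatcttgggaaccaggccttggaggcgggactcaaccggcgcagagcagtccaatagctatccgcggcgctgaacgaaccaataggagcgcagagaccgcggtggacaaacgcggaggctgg
Grwd1: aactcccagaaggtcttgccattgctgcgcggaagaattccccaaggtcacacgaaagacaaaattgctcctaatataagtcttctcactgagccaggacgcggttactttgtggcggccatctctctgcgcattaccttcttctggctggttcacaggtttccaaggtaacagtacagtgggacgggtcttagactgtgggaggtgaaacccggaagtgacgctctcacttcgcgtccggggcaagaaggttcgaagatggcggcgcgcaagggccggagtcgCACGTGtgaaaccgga
Over all measured members, the CHR element was in 70.3% of 37 promoters of mitosis genes and a CCAAT box in 75.7%, against 11.7% and 37.1% of promoters of all measured genes. The E2F site was in 26.3% of 38 promoters of replication genes, against 1.65%, and a CCAAT box in 55.3% of them, against 37.1%. The E-box was in 20.5% of 73 promoters of ribosome biogenesis genes, against 10.1%. Among the 71 promoters of genes lower by the size rule the shares were 26.8% for the CHR element, 49.3% for the CCAAT box, 7.04% for the E2F site and 12.7% for the E-box. Among the 130 promoters of higher genes they were 10.8%, 40% and, for the E2F site and the E-box, 0% and 6.92%. The GC box GGGCGG was in 57.7% of higher and 60.6% of lower promoters, against 64.5%. Promoters of higher genes had a median CpG ratio of 0.61, those of lower genes 0.78 and those of all measured genes 0.76. The higher and lower sets were matched for 101 of 128 and 65 of 85 named genes. A match is a string of letters and not evidence of binding.

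**Figure D3:**
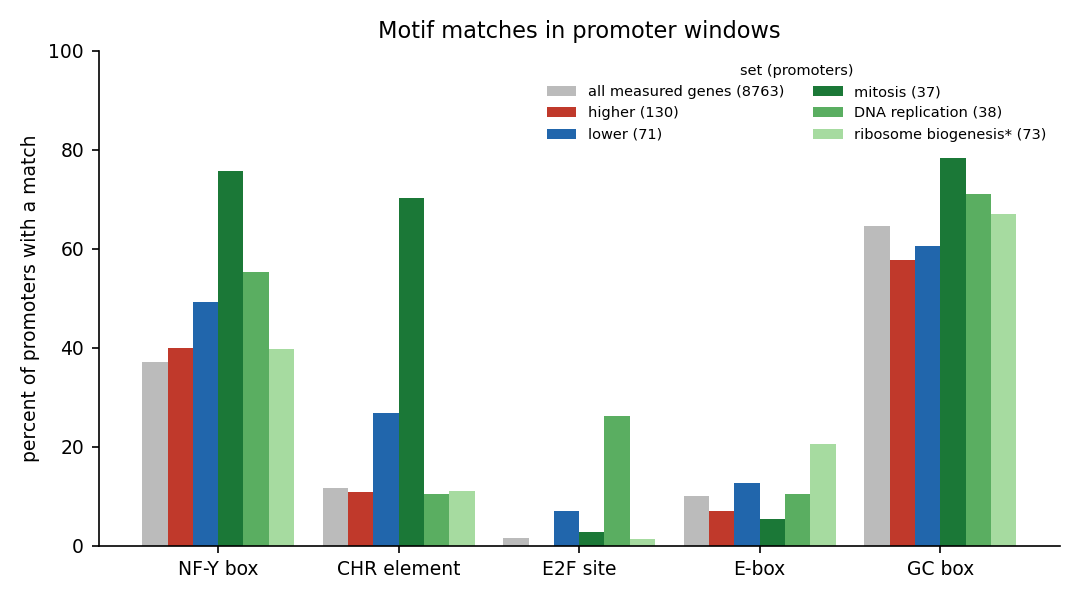
Percent of promoter windows (250 bases before to 50 after the start site) with a match to each motif, for all measured genes, genes higher or lower by the size rule, and the measured members of 3 lists; the NF-Y box is the CCAAT box, and the asterisk marks a list written after values were seen. The CHR element is in 70.3% of mitosis promoters and the E2F site in 26.3% of replication promoters.

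Genes of DNA methylation were among the lower ones. Uhrf1, which brings Dnmt1 to newly copied DNA, read 290.6, 84.1 and 44.1, and another probe set of it gave differences of -1.56 and -2.45. Dnmt3b, a de novo methyltransferase, read 29.8, 4.8 and 1.6, so it was dim in untreated cells. They were 2 of 10 measured genes of DNA methylation, with 0 higher, where 1.00% of all features were lower, and Dnmt3b missed the rule with the larger offset. Dnmt1 differed by -0.84 at 24 h and -1.15 at 48 h and so missed the rule at 24 h. Of 22 histone deacetylases and acetyltransferases 0 passed in either direction. At both times 8 were above and 8 below untreated, against 38.6% and 34.5% of all features. The acetyltransferase Kat2b read 105.3, 258.8 and 156.2 and Kat2a 246.6, 135.1 and 133.9. Of 9 histone genes 1 was lower, the variant H2ax at 948.3, 348 and 256.5.

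Single members of other groups were far lower. Gjb2, the gap junction protein connexin 26, read 285.1, 48.8 and 21.8 and had the largest lower response by the rule used here. Its limma estimate was -2.73 ± 0.44 (SE, limma adjusted p = 0.241). Anxa8, an annexin, read 269.2, 61.5 and 46.3, and Kcnn4, a calcium-activated potassium channel, 84.8, 5 and 12.9. Fosl1, a partner of Jun in AP-1, read 202.2, 79.6 and 39.2. It was the 1 of 34 immediate early, Id, Myc and Klf genes to pass, though not with the larger offset. Of all features 1.00% were lower. Myc read 278.8, 181.3 and 179.9. Tubb6, a tubulin, was near the limit at 24 h and far below it at 48 h, with signals of 986.6, 479.5 and 166.4.

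The remaining lists held at most 2 members past the size rule in a direction, and such small counts were not tested. Of all features, 1.54% were higher and 1.00% lower by the size rule. At any size, 38.6% of all features were above untreated at both times and 34.5% below. A count of 1 among 32, 33 or 35 genes is near the shares of the size rule, and is no result about the list. Of 20 imprinted genes 2 were higher (Dcn, also counted in the matrix list, and Peg3) and 0 lower, with 13 above at both times and medians of 0.34 and 0.74. Of 15 genes of MHC class I presentation 0 passed and 11 were above. Of 35 interferon-stimulated genes 1 was higher, Ifi27l2a at 33.1, 99.4 and 100.4, and of 22 chemokine, cytokine and complement genes 2 were, Cxcl14 and Cxcl1. Of 32 p53 targets 1 was higher, Pmaip1 (Noxa) at 3, 71.3 and 33.8, and 1 lower, Gtse1. Of 10 germline genes 1 was higher, the cohesin subunit Stag3 at 9.4, 31.2 and 30.7. No member passed among 36 heat shock and unfolded protein genes, 19 cholesterol synthesis genes, 26 genes of retinoid and lipid handling, 12 mesothelial genes and 18 housekeeping genes. Of the cholesterol genes 10 were below untreated at both times, with medians of -0.13 and -0.48. Of 33 actin and muscle genes 1 was higher, the troponin Tnnt1 at 1.7, 24.9 and 24.3, and of 19 matrix proteases 1, Adamts7 at 5.6, 30.5 and 23, both dim. Of 17 genes listed as reduced by this class of drug 2 were lower, Tk1 and Ccna2, and 10 were below at both times. With the larger offset Peg3, Ifi27l2a, Cxcl1, Pmaip1, Gtse1, Stag3, Tnnt1 and Adamts7 missed the rule.

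**Figure D4:**
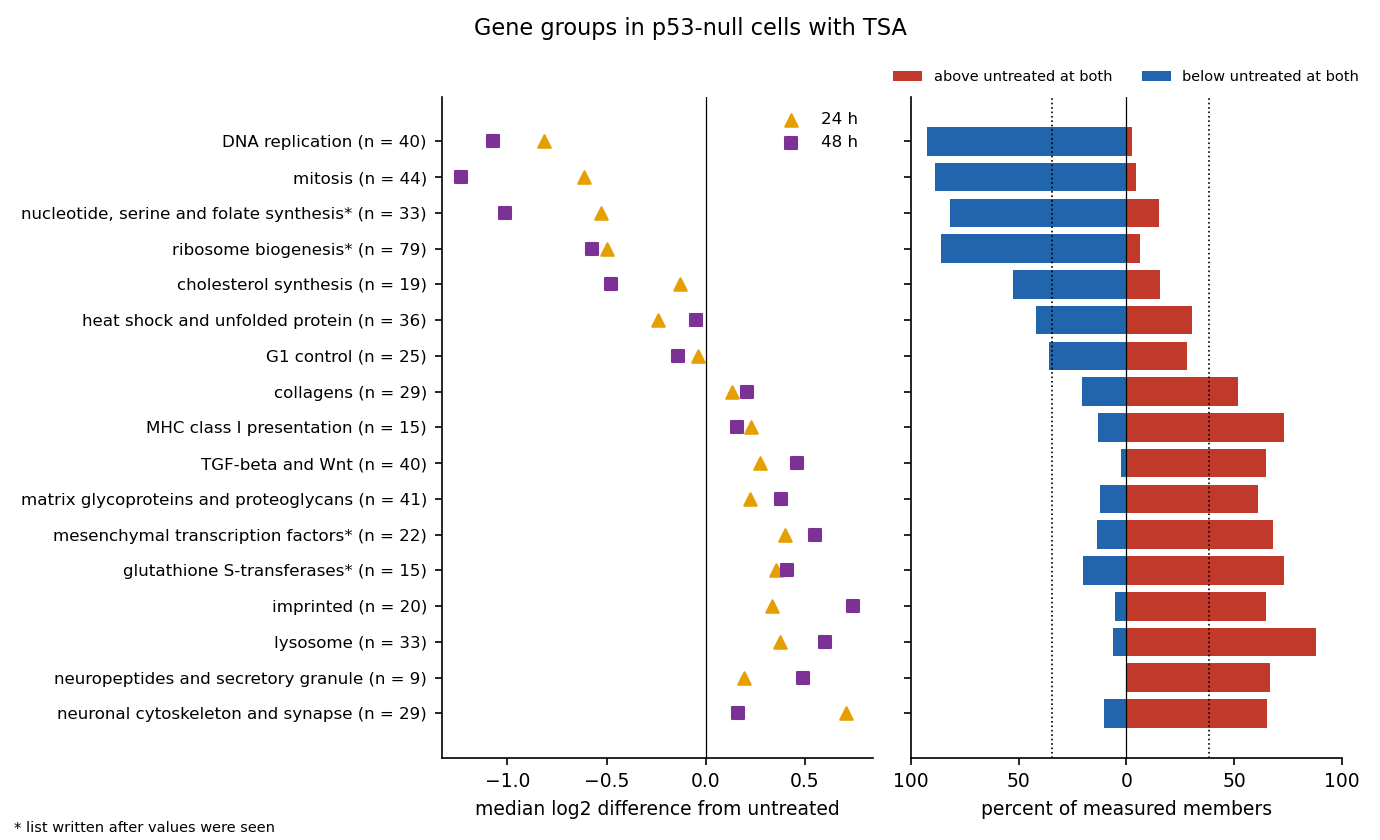
Left, median log2 difference from the untreated p53-null array at 24 h (triangles) and 48 h (squares) for the measured members of 17 lists. Right, percent of members above (red) or below (blue) the untreated signal at both times, with dotted lines at the shares of all features, 38.6% and 34.5%; 37 of 40 replication and 39 of 44 mitosis genes were below, and 29 of 33 lysosomal genes above.

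Other probe sets of the same gene mostly gave the same direction. Of the higher genes 34 had 58 other probe sets, of which 53 were above untreated at both times, 1 was below at both, and 20 passed the size rule. Of the lower genes 37 had 55 others, of which 53 were below at both times, 2 were above and 24 passed. Their medians were 0.81 and 0.93 for the higher genes and -1.03 and -1.19 for the lower. Probe sets of a gene share the RNA of the array and are no replicates.

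The same features were then read in the p53-Dnmt1-null cells, against the untreated array of that genotype, which shares no array with the p53-null comparison. There 176 features (1.87% of 9390) were higher and 32 (0.341%) lower by the size rule. At any size 3144 (33.5%) were above their untreated signal at both times and 3415 (36.4%) below. Of the 145 features higher in p53-null cells, 25 were also higher by the size rule in p53-Dnmt1-null cells, 90 were above at both times and 19 below, with medians of 0.39 and 0.44. The 25 are 17.2% of the p53-null features, where 1.87% of all features were higher, and 14.2% of the p53-Dnmt1-null ones. Of the 94 lower features, 5 were lower there by the size rule, 82 were below at both times and 2 above, with medians of -0.90 and -0.57. The 5 are 5.32% of the p53-null features and 15.6% of the p53-Dnmt1-null ones: Lig1, Bcat1, Nasp, E2f8 and Syn3, named because the count is small. No feature passed the rule in opposite directions. Limma's test of the difference in TSA effect between genotypes called 0 features (0%), with a lowest adjusted p of 0.760 and 291 features at an unadjusted p under 0.05, so no response is shown to belong to p53-null cells alone.

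Single genes show how these shares arise. Nts was higher in both genotypes, at 18.2, 331.7 and 218.7 in p53-Dnmt1-null cells at 0, 24 and 48 h, and so was Igfbp2, at 403.9, 1789.1 and 2194.9. Igfbp2 came close to its levels in p53-null cells with TSA, and Nts stayed below them at both times. Qpct stayed dim there at 2.1, 9.9 and 2.7, and Dkk2 at 1, 0.6 and 0.7. Dcn was bright without TSA, at 1097.9, 621.2 and 1611.5. Mitotic and replication genes were lowest at 24 h there and partly back at 48 h: Plk1 read 621.6, 209.7 and 460.8 and Mcm5 1185, 303.5 and 709.2. In p53-null cells the same genes were lowest at 48 h. The list medians were -1.49 and -0.46 for mitosis and -1.16 and -0.54 for replication in p53-Dnmt1-null cells. With 1 array per time, timing and the state of each culture cannot be told apart.

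**Figure D5:**
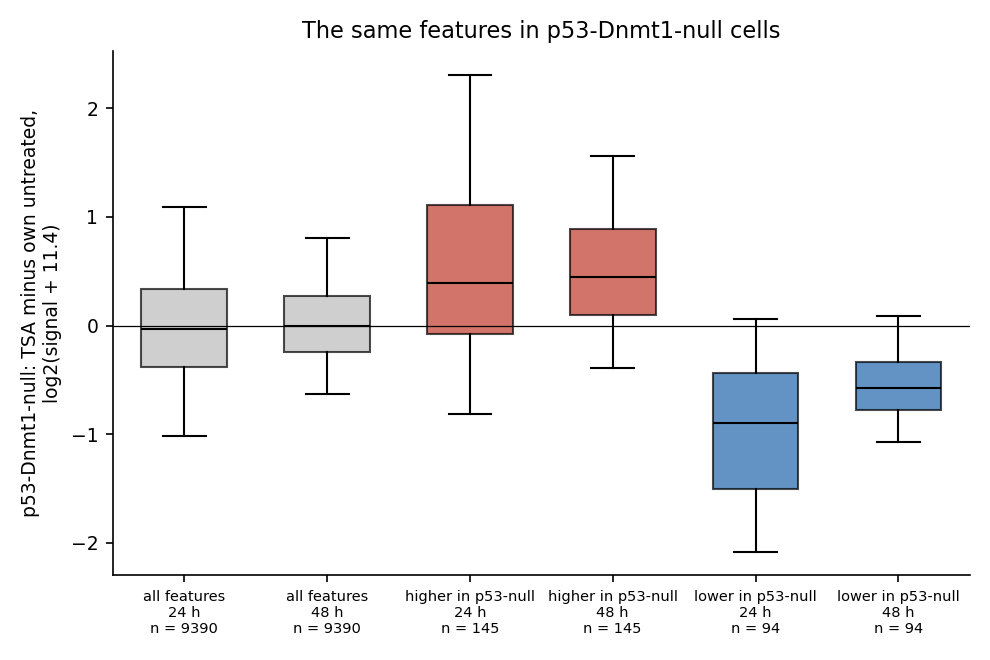
Difference from the untreated p53-Dnmt1-null array at 24 h and 48 h of TSA, in log2(signal + 11.4), for all 9390 features and for those higher (145) or lower (94) in p53-null cells. Boxes span the middle quartiles with the median as a line, and whiskers run from percentile 5 to 95; the medians are 0.39 and 0.44 for the higher features and -0.90 and -0.57 for the lower.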

How the data were processed

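RNA of 7 groups of mouse embryonic fibroblasts, 1 sample each, was hybridised to 1 Affymetrix array per group. Per the labels' protocols the authors purified total RNA with TriZol and labelled it by Affymetrix's procedure. The deposited values are signal intensities on a linear scale for 22690 probe sets, made with MAS5 per the submitters' processing notes. Its version and scaling target are unstated in these sources. The 2% trimmed mean was 150.1 on every array, so the deposited intensities were already scaled, and no further normalization was applied.

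Probe sets were named through the array's annotation table, which listed 21084 of them, 20393 with 1 symbol and 691 with several. Symbols of 20364 were updated through Entrez identifiers to RefSeq (GRCm38.p6). Features with several symbols or none stayed unnamed, and a gene was represented by the probe set that was brightest on average (log2). The offset of 11.4 is percentile 25 of all signals, and the filter at 45.6 their median.

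A response was at least 2-fold in 1 direction at both 24 h and 48 h. Limma 3.58.1 in R 4.3.3 fitted all 7 arrays as 5 groups, the TSA times of each genotype pooled, with a trend on intensity. P-values were adjusted by Benjamini-Hochberg and judged at 0.05. The residual had 2 degrees of freedom and the prior 5.75. Real change from 24 h to 48 h enters that residual, each lone array borrows its spread from the pairs, and the p-values hold no spread between cultures. The computations were tested on simulated data. Precision is limited by the number of arrays.

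Genes were named if among the 30 largest responses in a direction, ranked by the smaller of both differences, or among the 4 largest of a list. Named beyond that rule, after their values were seen, were Cad, Cdc20, Dhodh, Grwd1, Nasp, Nop56, Syn3, Tubb6, Vcan, the markers and the genes of opposite direction. The members and the 46 lists were chosen with earlier results of these data known, and 4 of the lists were written after values were seen. Alternatives were another offset, filter, fold, scaling and time, and every probe set on its own.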

Additional observations from a re-analysis of the deposited data

Results flagged for a closer look

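In p53-Dnmt1-null cells the differences of 16 named genes had the opposite sign at both times from their 2-fold response in p53-null cells, at any size. The difference of the TSA effects (p53-Dnmt1-null minus p53-null, log2) was 2.50 for Etv4 and 1.65 for Wdr77, which were lower in p53-null cells. For the higher genes it was -2.34 for Itih5, -2.17 for Rbm26, -1.91 for Spock2, -1.87 for Emc2, -1.87 for Bpnt2, -1.87 for Prrx1, -1.79 for Zfp931, -1.75 for Vamp7, -1.73 for Dkk2, -1.66 for Stk17b, -1.59 for Ro60, -1.40 for Tenm3, -1.27 for Dbp and -1.27 for Hs3st1. Limma's test of this difference called 0 of them after adjustment over all 9390 features. In p53-Dnmt1-null cells Prrx1 read 52.1, 25 and 28 at 0, 24 and 48 h, and Itih5 7.1, 5.3 and 5.6. Dkk2 read 1, 0.6 and 0.7 there. Itih5 and Dkk2 lie under the offset of 11.4, so the sign of their difference in that genotype carries no information, and Emc2 was level at 48 h, at -0.01. Zfp931 read 18.1, 11.6 and 10.4 in that genotype and Etv4 12.9, 51.1 and 17.4. Of these signals only the 51.1 exceeded the median of all signals, so the signs for both genes rest on dim values. Other probe sets of Rbm26 differed in p53-null cells by 0.19 and 0.34, and by -0.38 and 0.30, at 24 and 48 h.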

How the results depend on the processing

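The size rule gave 145 higher and 94 lower features. An offset at the median signal left 45 and 41, and an offset of 1 gave 253 and 145. Single genes were rerun only where the naming rule above chose them, so the next list leaves out other genes that missed the limit. With the larger offset 30 of the rerun genes past the limit missed it: Adamts7, Cadm3, Cnih2, Cxcl1, Dnmt3b, E2f8, Fosl1, Gpc3, Gsta4, Gstt1, Gstt3, Gtse1, Icam1, Ifi27l2a, Kif20a, Meis1, Mitf, Moxd1, Pask, Pcsk1n, Peg3, Pmaip1, Serpini1, Smarca1, Snai2, Stag3, Syn1, Tmem35a, Tnnt1 and Uchl1. A filter at percentile 75 left 76 higher and 75 lower, and a filter on the untreated p53-null array, chosen after seeing the data, left 64 and 89, so that lower features then outnumbered higher ones. Each probe set that passed the filter, on its own, gave 212 and 145, and each one without the filter 253 and 161. A limit of 1.5-fold gave 599 and 446, and of 3-fold 22 and 6. At 24 h alone there were 317 and 174, and at 48 h alone 446 and 298. No filter gave 170 and 105, quantile normalization 128 and 99, and equal medians 137 and 101. Of the rerun genes, Adamts7, Cxcl1, Gsta4 and Stag3 missed the limit under both of the latter scalings, and Mitf under quantile normalization. Under the larger offset and both scalings, the settings run for single genes, no rerun gene changed direction. Limma called 0 features with another offset, quantile normalization, no trend, no filter or only the 3 p53-null arrays, with lowest adjusted p-values from 0.257 to 0.651 for TSA and, for the genotype difference where fitted, from 0.162 to 0.990. No paired analysis was possible because each group has 1 array and no replicate numbers.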
